A study of Mus musculus with 4 samples.

Results

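The genes described here are the ligands and receptors of axon guidance, chosen by the start of their symbols. The rule took genes whose symbols begin with Plxn or Unc5. It also took Sema, Slit, Robo, Ntn, Epha, Ephb, Efna or Efnb followed directly by a digit. Ntng1 and Ntng2, with a letter in that place, were not taken and stand among the other genes of the pathway. The rule found 64 of the 21578 genes in the deposited count tables. Of these, 60 are guidance genes. The other 4 share only the name, namely Unc50, which encodes a Golgi protein, and the antisense RNAs Plxna4os1, Plxna4os2 and Plxna4os3. The rule used names and no measured value, but it was chosen with earlier results of these data known. It leaves out by name 4 guidance genes best known from vessels, Plxnd1, Robo4, Efnb2 and Ephb4, which are given separately at the end.

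Axon guidance cues are proteins that attract or repel growing axon tips, and sprouting blood vessels are steered by many of the same pairs. Semaphorins signal through plexins, in the secreted class 3 mostly together with neuropilins. Slits signal through Robo receptors, and netrins through Dcc, neogenin and the Unc5 receptors. Ephrins are bound to the cell surface, the A type by a lipid anchor and the B type by a membrane span, and they meet Eph receptor tyrosine kinases on neighbouring cells. In the developing brain, endothelial tip cells carry several of these receptors, while neurons and glia make many of the ligands.

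RNA was measured in endothelial cells, the cells that line blood vessels, taken from C57BL/6 mouse brains at postnatal day 0. Control mice were Pd1fl/fl, with both Pd1 alleles (Pdcd1, an inhibitory receptor best known from T cells) flanked by loxP sites, and Pd1cKO-Tie2 mice carried the same floxed alleles plus Tie2-Cre. The Tie2 promoter drives Cre in endothelial cells and, as background, also in blood cell lineages, so deletion need not be limited to the vessel wall. Cells were sorted by flow cytometry with antibodies to CD31, an endothelial surface protein, and CD45, a leukocyte protein. Each genotype had 2 libraries, numbered here by table column. The number on the second Pd1cKO-Tie2 column is on no sample label, so that library is known by genotype alone. No source used here says that libraries came from separate animals, how many animals were pooled or their sex, so the p-values measure only the spread between these samples, which may be technical. The control samples carry the word wildtype in their titles and the floxed genotype in their labels.

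Total counts were 13715837 to 14359990 per Pd1fl/fl library and 14157027 to 24147311 per Pd1cKO-Tie2 library, and a count of 0 allows up to 3 counts, for counting error only. A gene not listed for a library may hold up to 4 counts there and was set to 0. Pdcd1 itself was counted 32 times in Pd1fl/fl replicate 1, was listed at 0 in both Pd1cKO-Tie2 libraries and was not listed for Pd1fl/fl replicate 2, so it did not tell Pd1fl/fl replicate 2 from the Pd1cKO-Tie2 libraries. Levels are given as CPM, counts per 1000000 counted reads after TMM scaling, which corrects for differences in library composition, unless stated to be per kilobase of exon. The libraries differed in markers of other cells. The summed level of 6 neutrophil markers was 727 CPM in Pd1fl/fl replicate 1 against 0.703 to 2.00 CPM in the other 3 libraries, and that of 6 microglia markers ran from 1749 to 2194 CPM in the control and from 678 to 1514 CPM in the Pd1cKO-Tie2 libraries. All 10 endothelial markers were present at a summed 9576 to 10503 CPM in Pd1fl/fl against 12432 to 13292 CPM in Pd1cKO-Tie2, and 11 of 12 neuron markers were present too, at 943 to 1349 CPM and 974 to 1119 CPM, Slc17a7 being listed nowhere. Pericyte and smooth muscle markers summed to 3735 to 5718 CPM and 3811 to 3820 CPM, and oligodendrocyte lineage markers to 87.4 to 162 CPM and 93.7 to 182 CPM. In sorted bulk cells, fewer cells of a type and less RNA per cell cannot be told apart.

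Reads of the 64 members made up 0.159% and 0.188% of all counts in the Pd1fl/fl libraries and 0.164% and 0.152% in the Pd1cKO-Tie2 libraries. The numbers of members listed at 0 or not listed were 12, 5, 5 and 11 in the same order. After edgeR's filter on low counts 54 members were tested, 51 of them guidance genes. The 10 that did not pass were Efna3, Epha6, Epha8, Epha10, Ntn5, Plxna4os3, Robo3, Sema3b, Sema3d and Sema3e, none of which reached 10 counts in more than 2 libraries.

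The comparison of Pd1cKO-Tie2 with Pd1fl/fl asked whether guidance genes differ in these cells when Pd1 is deleted. By the study's criterion, a change of at least 2-fold with an unadjusted p of 0.05 or less in edgeR's quasi-likelihood test, 1 of the 54 tested members differed, the receptor gene Epha1, which was lower in Pd1cKO-Tie2. That is 1.85% of members, beside 4.02% of all 15909 tested genes in either direction, 2.61% lower and 1.41% higher. An unadjusted p under 0.05 was reached by 2 members, Epha1 and Unc5b, or 3.70%, beside 6.39% of all genes. Counts of 1 and 2 members give no result about the members as a group. When a library was left out, the log2 change of Epha1 stayed between -6.65 and -4.53. After Benjamini-Hochberg adjustment in edgeR 0 of all 15909 genes passed 0.05, against 1016 at an unadjusted p under 0.05, with a smallest adjusted p of 0.735. DESeq2 gave 114 genes an adjusted p under 0.05 on all genes and 116 on the filtered genes, limma-voom 0. With 2 libraries per genotype an exact two-sided permutation test of a single gene cannot give a p below 0.333, so differences are judged here by the fit across all genes, and sums over families carry no test. Nor were differences between families or between types of receptor tested.

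The fitted change was below 0 in 34 members and above 0 in 20, so that 63.0% were lower, beside 50.4% of all tested genes. The median log2 change was -0.23 over the members and -0.0038 over all genes. Both Pd1cKO-Tie2 libraries lay below both Pd1fl/fl libraries in 14 members (25.9%, beside 18.1% of all genes) and above them in 5 (9.26%, beside 17.7%), and the genotypes overlapped in 35. This tilt towards lower values rested on Pd1fl/fl replicate 2, without which 29 members were higher and 25 lower and the median was 0.03. The 43 members with at least 10 counts in every library gave 29 lower and 14 higher, with a median of -0.24. The 4 vascular guidance genes left out by name are not in these counts, and all 4 had fitted changes above 0.

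**Figure D1:**
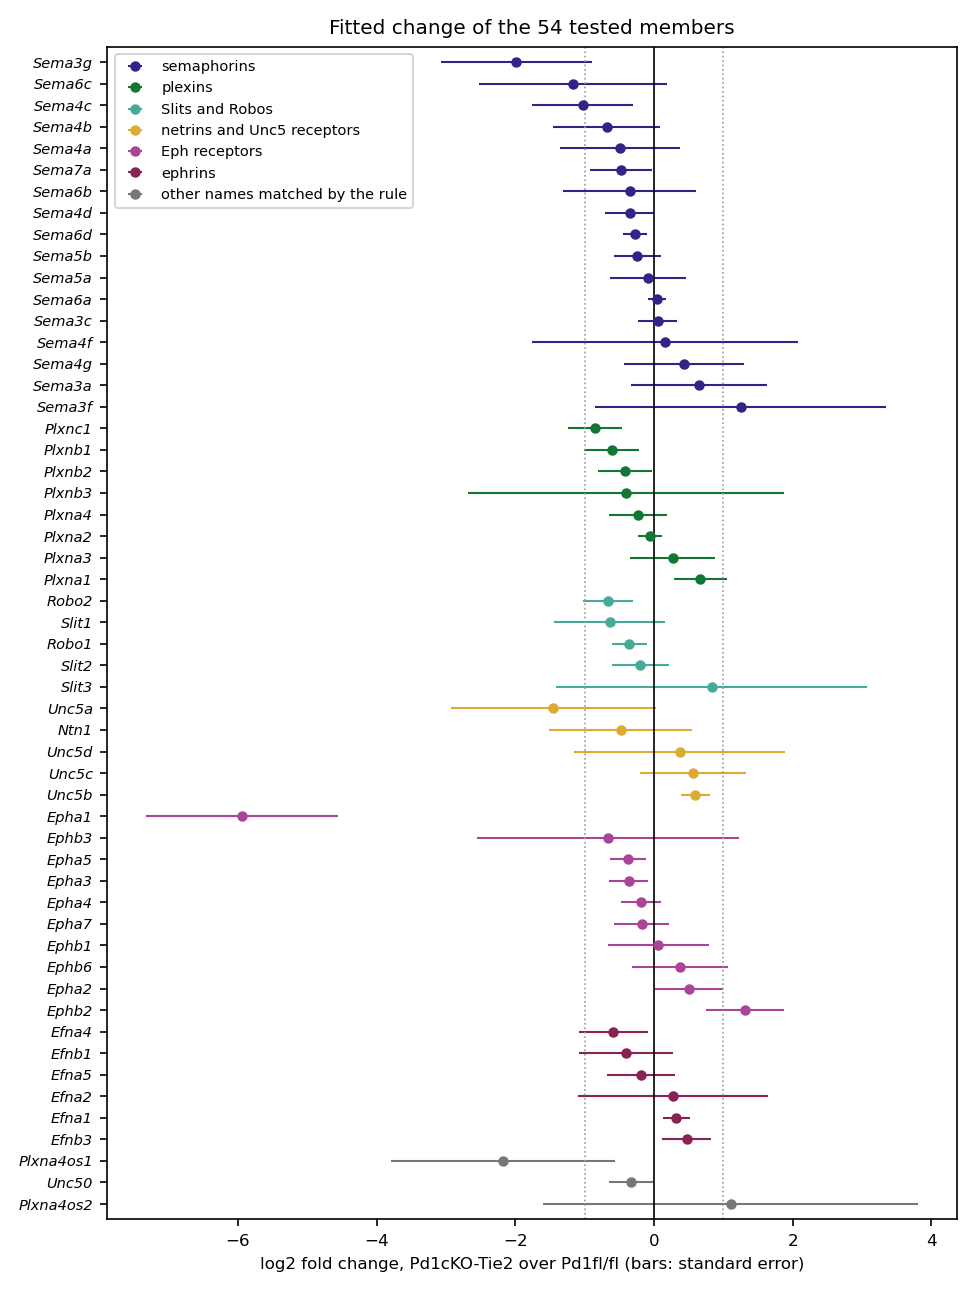
Fitted log2 fold change (horizontal axis, Pd1cKO-Tie2 over Pd1fl/fl) of the 54 tested members, ordered by value within each family. Bars are 1 standard error, worked back from the test, and dotted lines mark 2-fold. Epha1 lies farthest from 0 at -5.95, and its bar of 1.38 is wide beside that of Sema6a, 0.13.

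The members that lay nearest to a difference were Epha1, Unc5b and Ephb2. Their promoters are printed so that the start of each gene can be read beside its values. The windows run from 250 bases before the transcript start and include 50 from it, are taken from RefSeq on GRCm38.p6, and are all on the minus strand, written 5′ to 3′. Capitals mark matches on either strand to the motifs searched, here the GC box GGGCGG and the SOX core CATTGT. Epha1 lies at chr6:42373219-42373518, Ephb2 at chr4:136835963-136836262 and Unc5b at chr10:60831532-60831831.
Epha1: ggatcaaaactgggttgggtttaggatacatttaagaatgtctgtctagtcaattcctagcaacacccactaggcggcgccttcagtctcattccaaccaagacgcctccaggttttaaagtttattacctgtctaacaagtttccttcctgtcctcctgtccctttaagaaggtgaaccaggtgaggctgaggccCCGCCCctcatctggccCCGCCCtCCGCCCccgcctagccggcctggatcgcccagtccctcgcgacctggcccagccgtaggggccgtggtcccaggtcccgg
Ephb2: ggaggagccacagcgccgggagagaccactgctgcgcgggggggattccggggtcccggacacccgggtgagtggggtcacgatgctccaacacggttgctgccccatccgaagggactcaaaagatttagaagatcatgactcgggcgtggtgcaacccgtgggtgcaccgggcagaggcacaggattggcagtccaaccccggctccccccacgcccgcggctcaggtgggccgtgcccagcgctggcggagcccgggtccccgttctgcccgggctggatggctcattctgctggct
Unc5b: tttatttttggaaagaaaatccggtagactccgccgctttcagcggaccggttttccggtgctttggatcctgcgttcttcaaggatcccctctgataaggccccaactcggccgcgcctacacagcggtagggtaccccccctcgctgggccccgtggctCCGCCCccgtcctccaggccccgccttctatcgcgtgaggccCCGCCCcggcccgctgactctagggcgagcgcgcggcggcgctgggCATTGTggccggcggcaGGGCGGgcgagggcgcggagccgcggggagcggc

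GC content was 58.0% in the Epha1, 68.7% in the Ephb2 and 69.7% in the Unc5b window, with 14, 24 and 36 CpG dinucleotides. Epha1 and Unc5b each held 3 GC boxes, Unc5b also 1 SOX core, and Ephb2 held no match to any motif searched. For 52 of the 64 members the table had 68 promoters. A GC box stood in 69.1% of them, beside 35.7% of all 32851 promoters, and the TATA box TATAAA in 1.47% beside 13.6%. The median GC content of member promoters was 64.0%, against 52.7% over all promoters, and the median number of CpG dinucleotides was 19.5 against 7. The SOX core was found in 10.3% of member promoters and 12.6% of all. The TCF/LEF letters CTTTGAA stood in 2.94% beside 5.14%. The 3 other motifs, CTTTGAT, the GLI letters GACCACCCA and the ETS letters CCGGAAGT, stood in 0 of the member promoters and in 3.73%, 0.253% and 3.89% of all. These windows are GC-rich starts with few TATA boxes, and a match is no proof of a binding site.

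Eph receptors held the member farthest from 0 in each direction, Epha1 and Ephb2. Of 6 tested Eph-A receptors 5 had a fitted change below 0 and 1 above (median log2 change -0.28), and of 4 Eph-B receptors 1 was below and 3 above (median 0.22). The genotypes overlapped in 3 of the 6 Eph-A and in 3 of the 4 Eph-B receptors. Epha1 (ENSMUSG00000029859, chr6:42358487-42373268 on GRCm38) encodes a receptor for A-type ephrins, of which ephrin-A1 is the best known. It was counted 36 and 156 times in the Pd1fl/fl libraries against 3 and 1 times in the Pd1cKO-Tie2 libraries, which are 2.49, 10.97, 0.13 and 0.07 CPM. Both Pd1fl/fl libraries held more than both Pd1cKO-Tie2 libraries, and the Pd1fl/fl libraries themselves differed. Summed over libraries and scaled, 192 counts against 4 gave a ratio of 63.0 of Pd1fl/fl to Pd1cKO-Tie2. Its exact 95% counting interval of 24.2 to 234 covers counting error only and leaves out the spread between libraries. The fitted log2 change was -5.95 (SE 1.38), with an adjusted p of 0.735 in edgeR. Over the alternatives its adjusted p ran from 0.0126 with DESeq2 on the filtered genes to 0.922 in edgeR without Pd1cKO-Tie2 replicate 2. The criterion was not met without Pd1fl/fl replicate 2 (log2 change -4.53) or with limma-voom (-5.35). Exons of Epha1 share 236 bases (6.01% of its exon length) with Zyx on the opposite strand, and the use of strand in counting is not given in the sources used here. Microglia markers were lower in the same direction (1749 to 2194 against 678 to 1514 CPM), and their part in the Epha1 values was not tested.

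Ephb2 (ENSMUSG00000028664, chr4:136647539-136835988), a receptor for B-type ephrins, was the member with the highest fitted change. Its levels were 4.08 and 5.20 CPM in Pd1fl/fl and 13.1 and 9.94 CPM in Pd1cKO-Tie2, from 59, 74, 313 and 136 counts. The genotypes did not overlap, and the log2 difference of 1.31 (SE 0.56) had an adjusted p of 0.814 in edgeR and an unadjusted p above 0.05, so the criterion was not met. It kept a value between 1.10 and 1.495 when any library was left out, and limma-voom put it at 1.34, where it met the criterion.

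The Eph receptors with the most RNA per kilobase were Epha4, Epha3 and Epha2. Epha4, a receptor that binds ephrins of both types, had 63.3 and 100.4 CPM in Pd1fl/fl and 77.8 and 65.9 CPM in Pd1cKO-Tie2, so the spread within Pd1fl/fl spanned both other values (log2 change -0.19, SE 0.29). Epha3 had 45.2 and 50.2 CPM against 31.8 and 42.2 CPM, without overlap (log2 change -0.37, SE 0.28). Epha2, the main receptor of ephrin-A1, had 8.79 and 18.8 CPM against 22.1 and 17.0 CPM (log2 change 0.51, SE 0.49), with overlap. None of these 3 differed beyond the spread between libraries, and their adjusted p was 0.976 to 1.00 in edgeR. Summed over the 13 Eph receptors, the level was 230 and 275 CPM in Pd1fl/fl and 234 and 214 CPM in Pd1cKO-Tie2.

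Among the ephrins, 3 tested members were higher and 3 lower (median log2 change 0.04), over a range of -0.59 to 0.47. Efna1 (ENSMUSG00000027954, chr3:89271733-89281142), which encodes the ephrin-A1 found on endothelium, had the most RNA per kilobase. Its levels were 73.0 and 83.7 CPM in Pd1fl/fl and 94.5 and 101.9 CPM in Pd1cKO-Tie2, and both Pd1cKO-Tie2 values were higher (1.25-fold, log2 change 0.32, SE 0.20). Efnb3, which encodes the ephrin of the nervous system midline, had 15.8 and 14.6 CPM against 22.5 and 19.6 CPM (log2 change 0.47, SE 0.35). Efna4 went the other way, at 13.9 and 13.5 CPM against 11.5 and 6.65 CPM (log2 change -0.59, SE 0.50). Its exons share 10.5% of their length with an uncharacterised gene on the opposite strand. In all 3 the genotypes were separate. Of all tested genes, 17.7% were separate with Pd1cKO-Tie2 higher and 18.1% with Pd1cKO-Tie2 lower. The adjusted p of the 3 was 0.942 to 0.991 in edgeR. The summed ephrins were 131 and 136 CPM in Pd1fl/fl and 160 and 143 CPM in Pd1cKO-Tie2, a ratio of 1.13. All 10 endothelial markers were higher in Pd1cKO-Tie2 as well, with a median log2 change of 0.34. Their part in the Efna1 and summed ephrin values was not tested.

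Of 5 tested netrin and Unc5 genes 3 had a fitted change above 0, with a median of 0.37. That median is the value of Unc5d, whose direction changed when a library was left out. Their sum was 86.2 and 111 CPM in Pd1fl/fl and 123 and 152 CPM in Pd1cKO-Tie2, or 98.6 ± 17.5 against 137 ± 20.8 CPM (SD, n = 2 each), a ratio of 1.39. Most reads of this sum came from Unc5b (ENSMUSG00000020099, chr10:60762593-60831581), the netrin receptor of endothelial tip cells. Unc5b was counted 1021 and 952 times in the control libraries against 2228 and 1579 times in the Pd1cKO-Tie2 libraries, or 70.7, 66.9, 93.0 and 115 CPM. The genotypes did not overlap, and the 1.51-fold difference (log2 change 0.60, SE 0.21) had an unadjusted p under 0.05 and an adjusted p of 0.753 in edgeR. It is below the 2-fold criterion, and it stayed between 0.44 and 0.75 on the log2 scale whichever library was left out. Its unadjusted p was above 0.05 without either Pd1fl/fl replicate and without Pd1cKO-Tie2 replicate 2. The summed endothelial markers separated the genotypes the same way (9576 to 10503 against 12432 to 13292 CPM), and their part in the Unc5b difference was not tested.

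The other Unc5 genes, netrin receptors known mainly from neurons, varied within a genotype. Unc5d was counted 4 and 470 times in the control libraries against 336 and 398 times in the Pd1cKO-Tie2 libraries. Pd1fl/fl replicate 1 was alone in nearly lacking it, at 0.28 CPM against 14.0 to 33.0 CPM elsewhere. The fitted log2 change of 0.37 (SE 1.52) became 6.25 and met the criterion without Pd1fl/fl replicate 2, and was -0.62 at the lowest of the fits with another library left out. Unc5a had 95, 45, 81 and 2 counts, the lowest being Pd1cKO-Tie2 replicate 2, and a log2 change of -1.45 (SE 1.48). It ranged from -4.97 to -0.53 as libraries were left out and met the criterion without Pd1cKO-Tie2 replicate 1. The adjusted p of both was 1.00 in edgeR. Of the netrins, Ntn1 was tested and had 59, 44, 34 and 51 counts, so its RNA was scarce in all libraries. RNA of these sorted cells does not show how much netrin protein is present or what other cells make. Ntn1 was chosen for mention after its values were seen.

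Of 5 tested Slit and Robo genes 4 had a fitted change below 0, with a median of -0.35. Their summed level was 103 and 126 CPM in Pd1fl/fl and 90.0 and 80.3 CPM in Pd1cKO-Tie2, a mean of 114 ± 16.2 against 85.1 ± 6.89 CPM (SD, n = 2 each) and a ratio of 0.744. Robo1 and Robo2, which lie on chromosome 16 and encode Slit receptors, held most of its reads. Robo2 had 28.4 and 46.6 CPM in Pd1fl/fl and 26.1 and 20.98 CPM in Pd1cKO-Tie2 (log2 change -0.67, SE 0.36), so that the lower control library was close to the higher Pd1cKO-Tie2 library. Robo1 had 49.8 and 59.0 CPM against 45.0 and 40.1 CPM (log2 change -0.35, SE 0.25). Slit1, a ligand made by neurons, had 6.23 and 5.48 CPM against 5.10 and 2.41 CPM (log2 change -0.64, SE 0.80). All 3 had both Pd1cKO-Tie2 libraries below both Pd1fl/fl libraries, as had 18.1% of all tested genes. None of the 3 passed the test (adjusted p = 0.906 to 1.00, edgeR). Radial glia and astrocyte markers were also lower in Pd1cKO-Tie2, with 7 of 8 below 0, a median of -0.83, a summed 828 to 864 against 423 to 549 CPM and Fabp7 and Hes5 meeting the criterion. Neuron markers overlapped between genotypes (943 to 1349 against 974 to 1119 CPM). The part of these markers in the Slit and Robo values was not tested.

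Semaphorins were the largest family, with 17 of 20 members tested, 11 lower and 6 higher, and fitted log2 changes from -1.98 to 1.25. The summed level was 756 and 808 CPM in Pd1fl/fl and 750 and 723 CPM in Pd1cKO-Tie2, a ratio of 0.942. Sema6a, a transmembrane ligand of A-type plexins, took most of its reads, at 453 and 423 CPM in Pd1fl/fl and 459 and 448 CPM in Pd1cKO-Tie2. The log2 difference of Sema6a was 0.05 (SE 0.13) and became -0.01 when libraries were scaled by their totals, so no direction can be given. Sema6d, a related ligand of plexin-A1, had 149 and 144 CPM against 117 and 125 CPM. It did not overlap between genotypes, at a log2 change of -0.27 (SE 0.17). Sema7a, the lipid-anchored semaphorin that binds plexin-C1 and integrins, had 15.9 and 31.8 CPM against 19.3 and 15.1 CPM (log2 change -0.47, SE 0.45), with overlap. The adjusted p of these 3 was 0.940 to 1.00 in edgeR.

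The lowest fitted changes among semaphorins with separate genotypes were those of Sema3g and Sema4c. Sema3g, a secreted semaphorin made by arterial endothelium, was counted 47 and 168 times in the control libraries against 71 and 11 times in the Pd1cKO-Tie2 libraries, or 3.25, 11.8, 2.97 and 0.80 CPM. Pd1fl/fl replicate 1 and Pd1cKO-Tie2 replicate 1 were nearly level, and the log2 change of -1.98 (SE 1.09, adjusted p = 0.912 in edgeR) ranged from -3.21 to -0.78 as libraries were left out. With genes restricted to at least 10 counts in every library the same gene met the criterion. Sema4c, a ligand of plexin-B2, had 10.2 and 11.2 CPM against 2.51 and 8.04 CPM (log2 change -1.03, SE 0.73, adjusted p = 0.966 in edgeR). This ran from -2.09 to -0.41 as libraries were left out, and the criterion was met without Pd1cKO-Tie2 replicate 2. Its exons share 334 bases with D430040D24Rik on the opposite strand. By class, 10 of 13 membrane-bound semaphorins were lower (median -0.35), and of 4 tested class 3 semaphorins 3 were higher (median 0.35). The genotypes overlapped in 10 of the 13 and in 3 of the 4. The only class 3 gene without overlap was Sema3g, which was lower.

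Plexins, the semaphorin receptors, were lower in 6 of 8 members (median -0.31) and ranged from -0.85 to 0.67. All 3 plexin-B genes had fitted changes below 0 (median -0.42), and the 4 plexin-A genes divided evenly (median 0.11). The plexin-B median is the value of Plxnb2, which was 0.055 without Pd1fl/fl replicate 2, and the genotypes overlapped in 2 of the 3 plexin-B genes. Plxna1 had 13.8 and 14.5 CPM in Pd1fl/fl and 26.9 and 18.1 CPM in Pd1cKO-Tie2, all Pd1cKO-Tie2 values being higher (log2 change 0.67, SE 0.38). Exons of Plxna1 share 10.7% of their length with the opposite-strand gene Gm26811. Plxna2, the plexin with the most RNA per kilobase, was nearly level at 132 and 148 CPM against 136 and 133 CPM (log2 change -0.06, SE 0.17). Plxnb1, the receptor of Sema4D, had 20.7 and 33.7 CPM against 15.2 and 20.5 CPM (log2 change -0.61, SE 0.39), and Plxnb2 had 30.7 and 54.3 CPM against 37.2 and 26.4 CPM (log2 change -0.42, SE 0.38). The adjusted p of these 4 was 0.921 to 1.00 in edgeR. Plxnc1, picked once its values were known, had 19.7 and 18.8 CPM against 11.9 and 9.50 CPM, a log2 change of -0.85 (SE 0.39, adjusted p = 0.851 in edgeR) with separate genotypes.

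**Figure D2:**
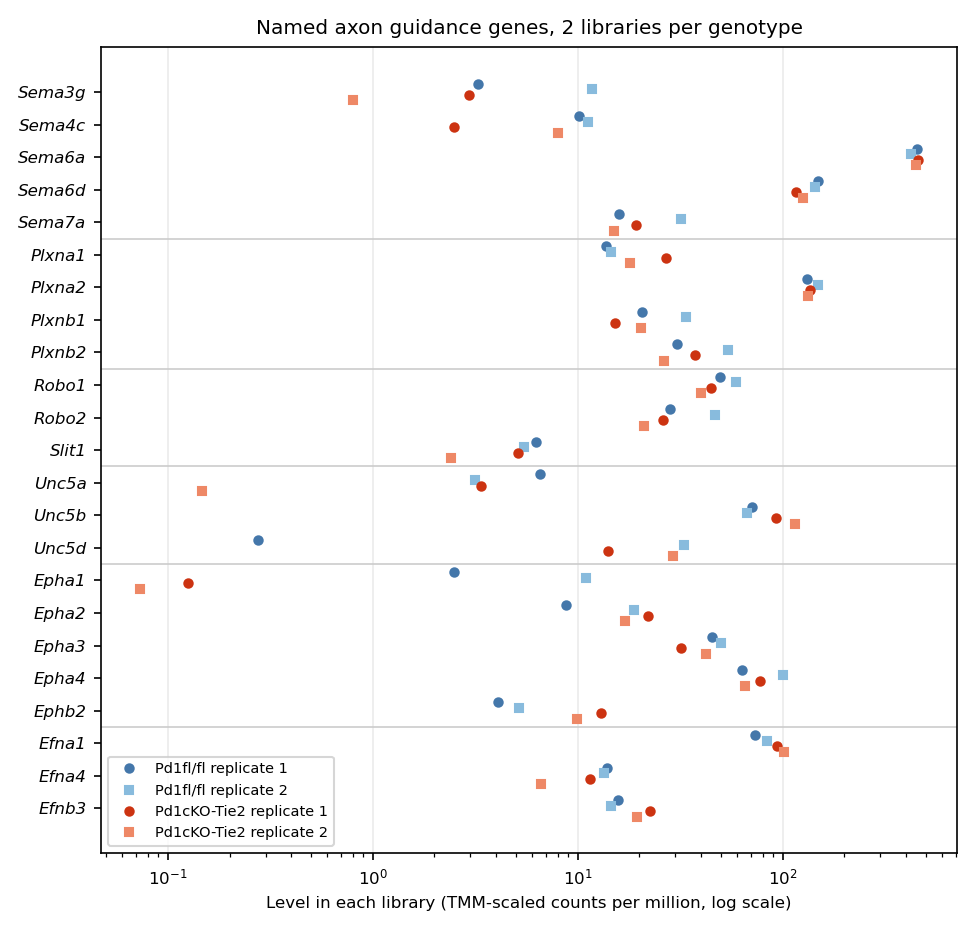
Level of the 23 members named by rule in each library (horizontal log axis, TMM-scaled CPM), grouped by family; blue marks are Pd1fl/fl and red marks Pd1cKO-Tie2. Epha1 in Pd1cKO-Tie2 (0.13 and 0.07 CPM) and Unc5d in Pd1fl/fl replicate 1 (0.28 CPM) stand far to the left, and Sema6a is at 423 to 459 CPM in every library.

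**Figure D3:**
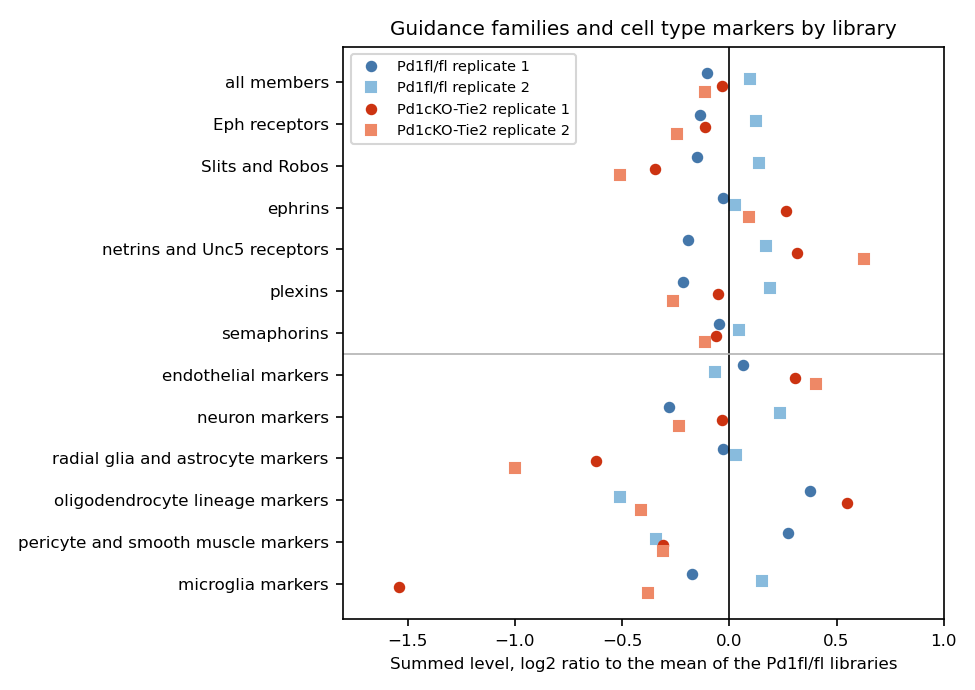
Summed level of each guidance family (above the line) and of cell type markers (below it) in each library, as log2 ratio to the mean of the Pd1fl/fl libraries. Netrin and Unc5 genes and ephrins lie to the right in both Pd1cKO-Tie2 libraries, Slits and Robos and semaphorins to the left. Eph receptors, plexins and all members together lie to the left as well, but overlap with the Pd1fl/fl libraries. The radial glia, microglia and endothelial markers also separate the genotypes.

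Levels between genes were compared per kilobase of exon, as means over the 4 libraries. Sema6a (50.8 CPM per kb) and Efna1 (48.2) stood above all other members, and their ranges over libraries overlapped, so their order cannot be given. Unc50, no guidance gene, followed at 14.5, then Unc5b at 13.8 and Sema6d at 12.7, which overlapped as well. Epha4 (9.54), Plxna2 (8.01), Efna4 (7.13), Sema7a (6.22) and Efnb3 (5.69) came next and overlapped with their neighbours in the order. The median over the 54 tested members was 1.80.

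**Figure D4:**
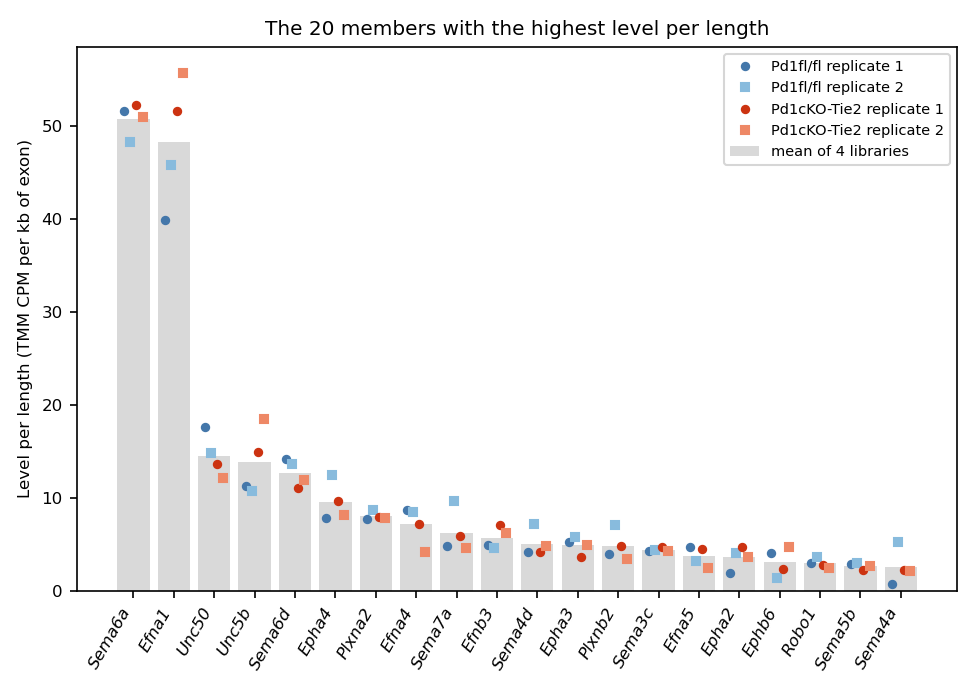
Level per kilobase of exon (vertical axis, TMM-scaled CPM per kilobase) of the 20 highest members; bars are means of 4 libraries and points single libraries. Sema6a and Efna1 reach 50.8 and 48.2, and the next member 14.5.

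The spread within a genotype is given beside the difference of genotype means, which as a difference of means is expected to be the smaller. On log2(CPM + 0.5), the median absolute difference over the 54 tested members was 0.62 between the Pd1fl/fl libraries, 0.50 between the Pd1cKO-Tie2 libraries and 0.40 between the genotype means. Over all tested genes the same medians were 0.45, 0.43 and 0.33. The difference between genotypes exceeded both differences within a genotype in 11 members (20.4%), beside 24.1% of all tested genes. Among the 35 members with at least 50 counts in every library the medians were 0.29, 0.31 and 0.35, and 10 members (28.6%) exceeded both. Over all tested genes so chosen the medians were 0.33, 0.32 and 0.255, and 24.4% exceeded both.

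Some members were seen in 1 library of a genotype and missing or nearly so in the other. At most 3 counts in 1 library against at least 20 in the other was found for 7 members in Pd1fl/fl and 8 in Pd1cKO-Tie2, 13 different members in all. The same count over all genes was not made, so these numbers give no result about the members as a group. Sema3d, a secreted repellent, was counted 90 times in Pd1fl/fl replicate 1, was listed at 0 in both Pd1cKO-Tie2 libraries and was not listed for the other control. Sema3e, the ligand of plexin-D1, was counted 123 times in Pd1cKO-Tie2 replicate 1, was listed at 0 in both control libraries and was not listed for Pd1cKO-Tie2 replicate 2. Ephb3 had counts of 61 and 70 in the control but of 137 and 0 in the Pd1cKO-Tie2 libraries. Sema4f had 0 and 112 against 135 and 43 counts. These examples were picked after their values were seen.

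**Figure D5:**
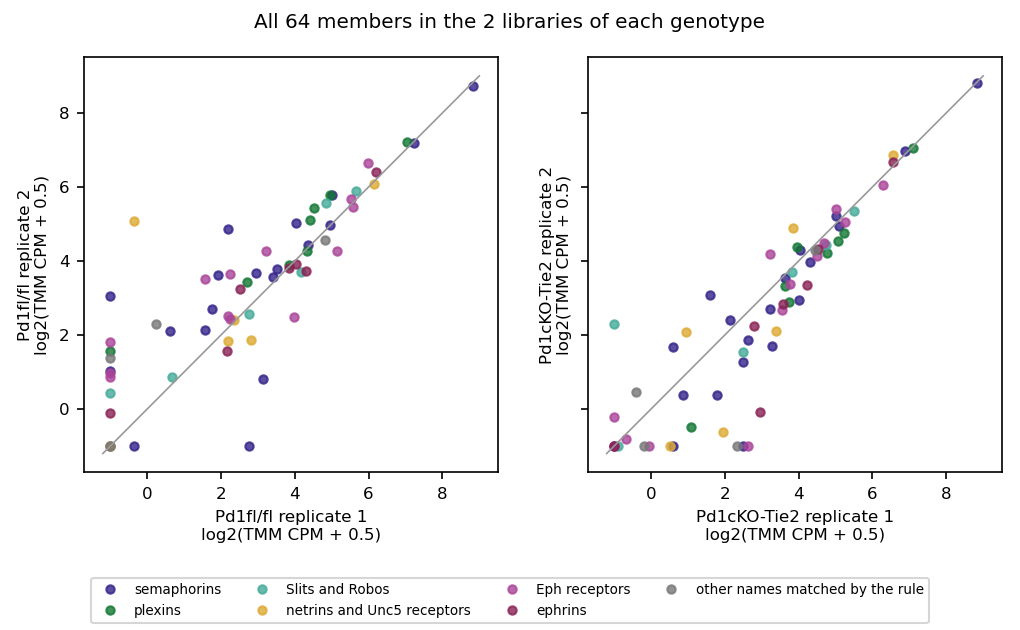
Level of all 64 members in replicate 1 (horizontal) against replicate 2 (vertical) of Pd1fl/fl (left) and Pd1cKO-Tie2 (right), on log2(TMM CPM + 0.5), with the line of equal levels. Abundant members follow the line, and points at the left and lower edges are members at 0 in that library.

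The other genes of the pathway were taken from 3 lists of 59 genes, of which 58 were tested. Of these 34 were higher and 24 lower, 1 met the criterion as higher (Ntng1) and 0 as lower, beside 1.41% and 2.61% of all tested genes, so the count gives no result about these lists. Ntng1, which encodes a netrin-related membrane protein, was counted 3 and 1 times in the control libraries against 93 and 21 times in the Pd1cKO-Tie2 libraries (adjusted p = 0.753 in edgeR). Summed and scaled, 114 counts against 4 gave a ratio of 21.7 with an exact 95% counting interval of 8.25 to 81.1. That interval covers counting error only and leaves out the spread between libraries. Among 10 co-receptors and other cue receptors, 4 were higher and 6 lower. Nrp2, a neuropilin that binds class 3 semaphorins and VEGF-C, had 65.3 and 58.3 CPM in Pd1fl/fl and 84.3 and 100.1 CPM in Pd1cKO-Tie2 (log2 change 0.58, SE 0.22, adjusted p = 0.753 in edgeR). Nrp1 was abundant and overlapped, at 216 and 325 CPM against 253 and 336 CPM. The netrin receptor Dcc had 18.3 and 28.7 CPM against 14.2 and 16.4 CPM (log2 change -0.62, SE 0.39, adjusted p = 0.944 in edgeR). Of 39 intracellular effectors 25 were higher and 14 lower with a median of 0.08, and of 9 tested further ligands 5 were higher and 4 lower.

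The 4 vascular guidance genes outside the naming rule all had fitted changes above 0, with a median of 0.30, and 0 met the criterion. Robo4, the endothelial Robo, had 563 and 536 CPM in Pd1fl/fl and 666 and 694 CPM in Pd1cKO-Tie2 (log2 change 0.31, SE 0.12, adjusted p = 0.764 in edgeR). Plxnd1, the endothelial semaphorin receptor, had 214 and 160 CPM against 275 and 221 CPM (log2 change 0.40, SE 0.21, adjusted p = 0.906 in edgeR). Ephb4, the venous Eph receptor, had 134 and 112 CPM against 163 and 126 CPM, and its arterial partner Efnb2 had 7.68 and 18.6 CPM against 18.5 and 13.7 CPM, both with overlap. In all 10 endothelial markers, too, the Pd1cKO-Tie2 libraries were the higher ones, with a median log2 change of 0.34, and their part in these values was not tested.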

How the data were processed

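The authors deposited 4 tables, each setting a Pd1cKO-Tie2 library beside a Pd1fl/fl library. Their counts are reads per gene without normalization, and their CPM columns, made by the authors from each library's total, served only to recover those totals. Columns with the authors' fold changes and p-values hold their own comparisons and were not used. The submitters' processing notes name TopHat2 2.0.12, Bowtie2 2.2.3, HTSeq 0.6.0 and mm9, although gene positions in the tables are those of GRCm38 (90.0% equal GENCODE M21). Use of strand is not given in the sources used here. Broken lines, 5 each, were skipped in 2 of the files. Each library's counts were the same in both of its tables. Genes absent from a library's tables, which hold at most 4 counts there (0.00495% to 0.0107% of a total), were set to 0.

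Tests used edgeR 4.0.16 in R 4.3.3, by quasi-likelihood, on the 21578 genes after filterByExpr by genotype (15909 genes) and TMM scaling, with no covariate; p-values were adjusted by Benjamini-Hochberg over these genes. A common biological coefficient of variation of 0.61 was estimated. Each SE was worked back from edgeR's test, as the absolute log2 change divided by the square root of the F value. Scripts were tested on simulated data. Sums over families and counts over lists carry no test. Alternatives were DESeq2 1.42.0, limma-voom (limma 3.58.1), other filters and scalings, and leaving out each library. Members were symbols starting with Plxn or Unc5, or with Sema, Slit, Robo, Ntn, Epha, Ephb, Efna or Efnb and a digit. Plxnd1, Robo4, Efnb2 and Ephb4 were left out. Members and lists were chosen with earlier results of these data known. Named members are those meeting the criterion, the 3 with the highest level per kilobase in each family, and the 3 highest and 3 lowest changes among members whose genotypes do not overlap.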

Additional observations from a re-analysis of the deposited data

How the results depend on the processing

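Between alternatives, genes meeting the criterion numbered 480 to 936. Members meeting it were 3 of 64 without a filter beyond 1 count, beside 698 of all 21578 genes. With DESeq2 on all genes they were 3 of 64, beside 936 of 21578. Both times these were Epha1, Sema3d and Sema3e, the last pair with counts in 1 library. Such counts give no result about the members as a group. Without Pd1fl/fl replicate 2 the log2 change of Epha1 was -4.53. DESeq2 on the filtered genes gave Epha1 an adjusted p of 0.0126. limma-voom called Ephb2 and not Epha1, and a minimum of 10 counts in every library called Sema3g, Epha1 being removed by that filter. The median of the members ran from -0.41 to 0.029 (without Pd1fl/fl replicate 2) as libraries were left out and from -0.30 to -0.15 otherwise, with a standard deviation of 0.24 between library medians within a genotype. Sema6a changed sign to -0.011 with library size scaling, which moved the median of all genes to -0.07. Leaving out a library turned the direction of Epha4 (-0.48 to 0.18), Plxna2 (-0.14 to 0.03), Plxnb2 (-0.77 to 0.055), Sema7a (-0.89 to 0.11) and Unc5d (-0.62 to 6.25). The cause was not tested. Of 181 single-member values under the other 8 settings, 177 kept direction and side of the threshold. The called genes split into 490 higher and 262 lower without Pd1fl/fl replicate 2, and into 121 and 603 without Pd1cKO-Tie2 replicate 1. No paired analysis was possible because the labels of the genotypes share fewer than 2 replicate numbers. Depth limits members under 20 counts, and fold changes of genes with 1 to 3 counts in a library rest on few reads. The counting intervals given for Epha1 and Ntng1 leave out the spread between libraries.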
